A study of Mus musculus with 3 samples.

Results

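Of the 24318 genes with an identifier in these H3K36me3 profiles of the fetal mouse pancreas, 1838 (7.56%) had a GB value of exactly 0 at all 3 stages. They are called GB-empty genes here, and the remaining 22480 are called the other genes. The profiles came from CUT&Tag, in which an antibody guides a transposase to cut and tag DNA next to a histone mark. The starting material was epithelial cells marked by EpCAM, sorted from the pancreas of C57BL/6 embryos of wild-type genotype at E11.5, E13.5 or E15.5, with 1 library per stage. Each deposited file lists, for every gene, coverage averaged over windows headed PR, GB and SE. No source spells out these headings. PR behaved as a window of 6000 positions and SE as one of 12000 whose sum was never below that of PR, so the 6000 positions of SE beyond PR were obtained by subtraction. Where these positions lie relative to PR and to the gene is not known, and SE need not be a single unbroken window. GB is read as the gene body, which is an inference from its values. None of the identifiers was found in the reference table (0 of 24318), so no gene is named, the markers of epithelium and of other cell types could not be examined, and no promoter or microRNA sequence could be tied to a gene.

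H3K36me3 is laid down by a methyltransferase that travels with elongating RNA polymerase, so the mark accumulates over the bodies of genes while they are transcribed and is sparse over silent ones. It is also known to recruit the enzyme that methylates DNA within gene bodies and to restrain transcription from starting inside them. A body without any signal can thus belong to a gene that is not transcribed, but a body that is very short can also miss every sequenced fragment.

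The genes were selected on their GB values in all 3 libraries, so those values are a description alone. Next to them stood 1809 genes with GB at 0 in 2 libraries, 2565 with GB at 0 in 1 library and 18106 with GB above 0 in every library. Among the 1809 genes, the library with signal was E11.5 in 847, E13.5 in 624 and E15.5 in 338. Their lowest GB above 0 was 1.99e-05, 2.83e-05 and 2.9e-06 in stage order, and the medians of the values above 0 were 0.00465, 0.00735 and 0.0164 in stage order. The genes nearest the limit of 0 thus differed from GB-empty genes by very little coverage in a single library. PR and SE were not used by the rule, but their windows may overlap the GB window, and any overlap would lower PR and SE in genes chosen for an empty GB.

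The GB value at E15.5 could be set beside the length of the GB window. The length was worked out from E11.5 and E13.5 alone, in the 19740 genes with GB above 0 in both, so that every gene was fitted on 2 values that leave out E15.5. It was taken as the smallest number of positions, up to 5000, at which both values gave whole steps of coverage. The true length can be a multiple of that number, more often where coverage is low. Among the 32 genes with a smallest length of at most 200 positions, 29 (90.6%) had GB at 0 at E15.5. That share was 67.0% of 182 genes at 501 to 1000 positions and 24.0% of 2068 genes at 2001 to 5000. It was 4.74% of the 17036 genes with a longer window or none found. In these genes, zeros at E15.5 were thus more frequent where the fitted window was short. Low coverage can both shorten the fitted length and leave a 0 at E15.5. Length and coverage were not separated, and the cause of this order was not tested. GB-empty genes have no value from which a length could be taken, so their own lengths were not measured.

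Most GB-empty genes still had some coverage in PR or SE. Any value above 0 counts here, however small, and median PR of GB-empty genes was only 0.000163 at E15.5. PR was above 0 in all 3 libraries in 781 of them (42.5%) and at 0 in all 3 in 126 (6.86%). Among the other genes those shares were 69.7% and 1.11%. SE, which covers more positions than PR, was above 0 in all libraries in 1301 GB-empty genes (70.8%) and at 0 in all libraries in 33 (1.80%). For SE the shares among the other genes were 88.0% and 0.520%. An empty gene body without SE coverage in all 3 libraries was therefore rare, also within this set. In the E15.5 library alone, SE was at 0 in 24.3% of GB-empty genes.

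PR was absent from more GB-empty genes at the last stage. The E11.5 library listed PR at 0 in 351 of them (19.1%), the E13.5 library in 449 (24.4%) and the E15.5 library in 843 (45.9%). The other genes followed the same order at lower shares, 6.65%, 10.9% and 20.1%. The commonest pattern with a zero was PR above 0 at E11.5 and E13.5 and at 0 at E15.5, which was found in 418 GB-empty genes (22.7%) and in 14.5% of the other genes. PR that was at 0 at the earlier stages and above 0 at E15.5 alone was found in 35 (1.90%) and 0.596%. SE was at 0 in 5.39%, 7.62% and 24.3% of GB-empty genes in stage order. Read depth per library is unknown, so an absence of coverage is a listed 0 in that library and has no interval. With 1 library per stage there is no measure of spread between embryos, and none of the differences given here was tested.

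**Figure D1:**
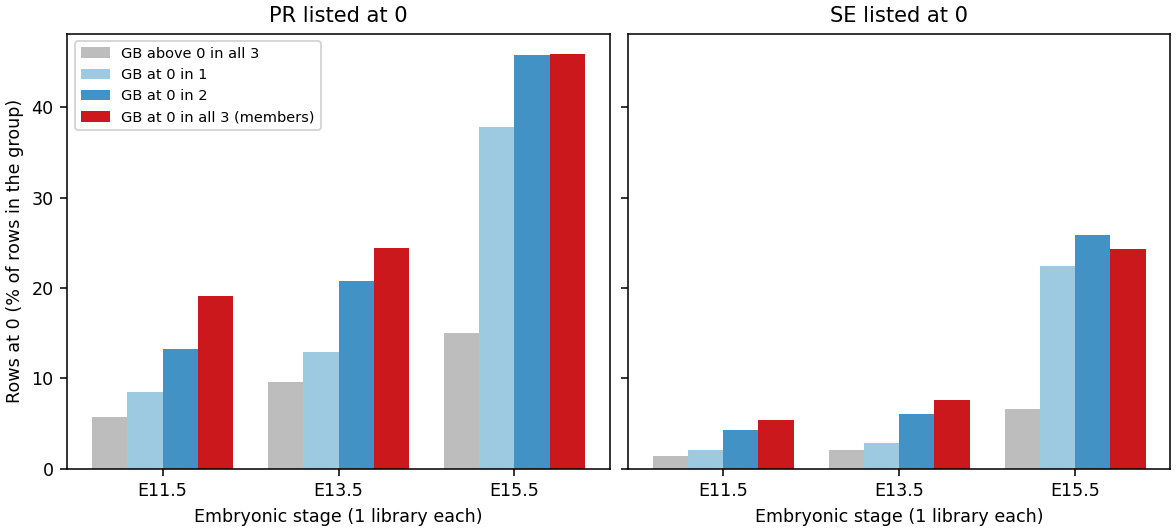
Share of genes with PR (left) or SE (right) listed at 0 in each library, in percent of the genes in each of 4 groups set by how many libraries had GB at 0; members are the 1838 GB-empty genes. For PR the share at E15.5 was 45.9% in GB-empty genes and 45.8% in genes with GB at 0 in 2 libraries, against 15.1% in genes with GB above 0 in all libraries.

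The level of PR in GB-empty genes was lower than in the other genes. At E11.5 and E13.5 the gap lay mainly in the lower part of the distribution, and at E15.5 it extended into the upper part. The 90th percentile of PR was 0.0126 against 0.0132 at E11.5, 0.0127 against 0.0118 at E13.5 and 0.0196 against 0.0326 at E15.5. In deposited units, the median PR of GB-empty genes was 0.00167 in the E11.5 library, 0.00201 in the E13.5 library and 0.000163 in the E15.5 library. For the other genes it was 0.00410, 0.00385 and 0.00624. Mean PR of GB-empty genes was 0.00437, 0.00446 and 0.00664, against 0.00562, 0.00511 and 0.0122. At E15.5 the mean of GB-empty genes was thus above and the median below the earlier stages, whereas both were above them among the other genes.

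Over the set as a whole, the upper tail of PR at the earlier stages reached as high as in the other genes. The 99th percentile of PR was 0.0267 in GB-empty genes and 0.0236 in the other genes at E11.5, and 0.0280 and 0.0218 at E13.5. At E15.5 it was 0.0686 and 0.0703. The value that the top 1% of other genes exceeded was itself exceeded by 28 GB-empty genes (1.52%), 45 (2.45%) and 17 (0.925%) in stage order. The value that the top 10% of other genes exceeded was passed, in stage order, by 165, 211 and 87 GB-empty genes, from 8.98% of the set in the first library to 4.73% in the last. Of the 165 at E11.5, 140 lay in a single stretch of deposited rows, called stretch 1 where the row order is described, as did 25 of the 28 above the 99th percentile. Outside all such stretches, 2.21% of GB-empty genes passed the 90th percentile at E11.5 and 3.14% at E13.5, so the tail was thin in the remainder.

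**Figure D2:**
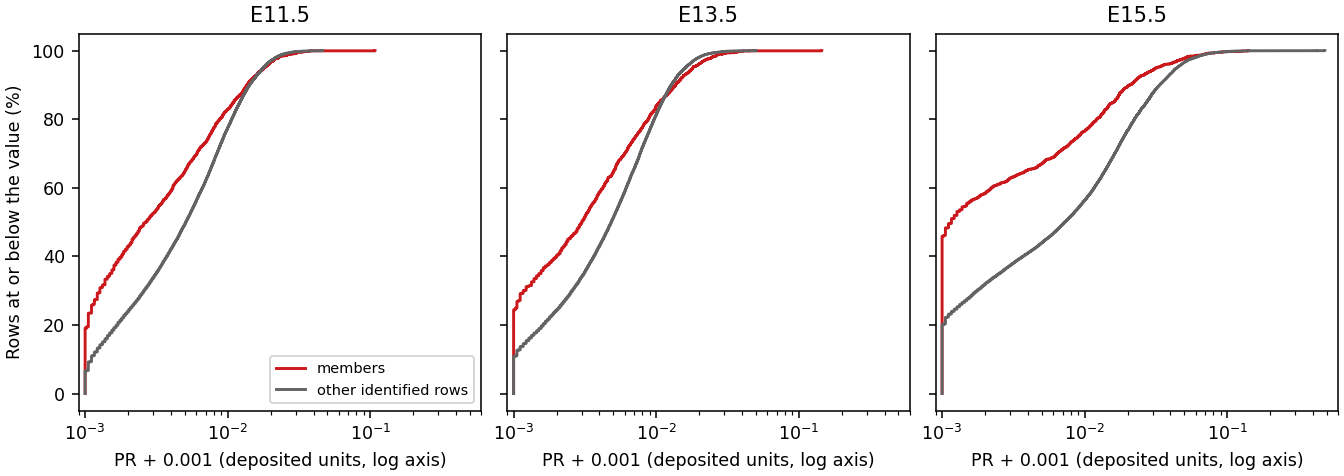
Cumulative share of genes (vertical axis, percent) by PR plus 0.001 in deposited units (horizontal log axis) in each library, for the 1838 GB-empty genes (members, red) and the other genes (grey). The red curve starts at the share listed at 0, from 19.1% at E11.5 to 45.9% at E15.5, and meets or crosses the grey one near the top at E11.5 and E13.5.

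A single GB-empty gene had the highest PR of all 24318 genes at E11.5 and again at E13.5. Its identifier was singled out only after the values were seen and is not printed. Its PR was 0.107 and 0.144 at these stages, and 0.0915 at E15.5, where it had rank 91. The highest PR among the other genes was 0.0454, 0.0493 and 0.484 in the same order. Coverage in the part of SE outside PR was of the same size, 0.0952, 0.115 and 0.129. Without it, mean PR of the GB-empty genes was 0.00432, 0.00439 and 0.00659, so this gene hardly set the mean.

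The first interval, from E11.5 to E13.5, was nearly balanced. Over all 1838 GB-empty genes PR was higher at E13.5 in 45.2%, lower in 45.9% and equal in 8.87%, most of the last at 0 in both. The median log2 ratio, taken as log2(PR + 0.001), was 0.00, and the ratio of mean PR was 1.02. The other genes gave 46.7% higher and 51.6% lower, with a ratio of means of 0.910. Counting only genes whose higher library reached 0.00407, the median PR over all genes and libraries, 307 of 924 GB-empty genes (33.2%) were at least 2-fold higher at E13.5 and 292 (31.6%) at least 2-fold lower. Over all genes that reached the floor, 28.8% were called higher and 32.8% lower. How many sequenced fragments the floor stands for was not measured, and a call can rest on very few of them. GB-empty genes that reached the floor did so through the library where they were high, so these counts describe and support nothing. Both shares lay near the background, and this interval showed no prevailing direction.

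In the second interval, E15.5 against E13.5, the mean was higher while fewer genes were higher than lower. PR was higher at E15.5 in 36.2% of GB-empty genes, lower in 47.0% and equal in 16.8%, while among the other genes it was higher in 56.8% and lower in 39.3%. The ratio of mean PR was 1.49 in GB-empty genes and 2.38 in the other genes. At least 2-fold differences were found in 382 higher and 325 lower of 916 GB-empty genes that reached the floor (41.7% and 35.5%), against a background of 52.2% and 24.7%. Of the 325 lower, 170 were listed at 0 at E15.5. Quantile normalization, which forces the libraries onto one distribution, turned the balance to 238 higher and 422 lower of 902. The share of all genes called after it is not given, so whether this turn is particular to GB-empty genes was not tested. The normalization moved the median log2 ratio over all genes by -0.31. Dividing each library by its median GB moved that median by 0.14 and left 57.8% of the calls higher, against 54.0% as deposited.

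Over the whole span, E15.5 against E11.5, fewer GB-empty genes were higher than lower in PR. PR was higher at E15.5 in 35.1% and lower in 51.6% of them, with a median log2 ratio of -0.07. The other genes had 55.5% higher, 41.6% lower and a median of 0.36. The ratio of mean PR was 1.52 in GB-empty genes and 2.17 in the other genes, so the gain of the former was 0.700 times that of the latter, a quantity in which any single scale factor of a library cancels. Calls numbered 369 higher and 328 lower of 919 (40.2% and 35.7%), against a background of 50.0% and 26.0%. After quantile normalization they were 248 higher and 421 lower of 897, with no background given under that setting.

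A similar difference was seen in genes whose body was empty in only some libraries, but these groups were themselves set by GB. At E15.5, GB was at 0 in 81.3% of genes with GB at 0 in 2 libraries. It was at 0 there in 63.7% of those with GB at 0 in 1 library. Both groups thus held mostly genes picked for an empty body in the later library, so their PR is a description alone. The mean PR ratio of E15.5 over E11.5 was 1.57 in genes with GB at 0 in 2 libraries and 1.30 in those with GB at 0 in 1 library, while it was 2.33 in genes with GB above 0 in all. Set against the genes with GB at 0 in 1 or 2 libraries alone, the relative gain of the GB-empty genes was 1.08 instead of 0.700. PR was lower at E15.5 than at E11.5 in 57.7% of genes with GB at 0 in 2 libraries, 58.8% of those with GB at 0 in 1 library and 37.6% of those with GB above 0 in all.

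**Figure D3:**
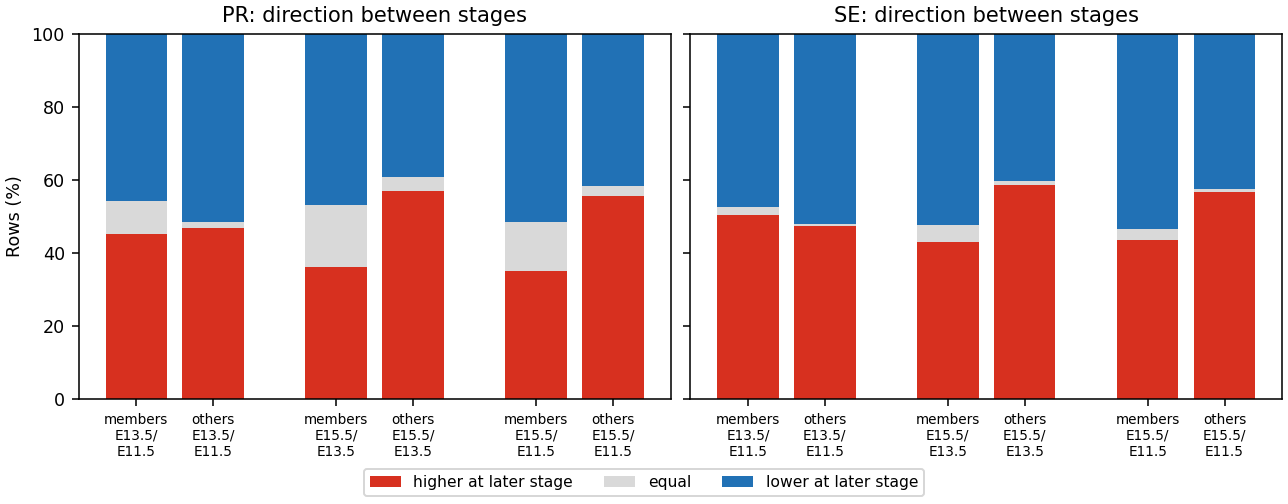
Percent of genes whose PR (left) or SE (right) was higher (red), equal (grey) or lower (blue) at the later stage, for the 1838 GB-empty genes (members) and the other genes (others) in each pair of stages; no test was run. For PR in E15.5 against E11.5, red covers 35.1% of GB-empty genes and 55.5% of the other genes.

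SE followed the same order as PR, with fewer zeros. Median SE of the GB-empty genes in stage order was 0.00291, 0.00293 and 0.00196, and mean SE was 0.00443, 0.00455 and 0.00645. SE at E15.5 was lower than at E11.5 in 53.4% of GB-empty genes and higher in 43.6%, whereas 56.5% of the other genes were higher. In E13.5 against E11.5, 202 of 892 GB-empty genes that reached the SE floor of 0.00460 were at least 2-fold higher (22.6%) and 225 lower (25.2%), with a background of 19.9% and 24.8%. In E15.5 against E13.5 there were 383 higher and 220 lower of 943 (40.6% and 23.3%, background 45.7% and 17.9%). In E15.5 against E11.5 there were 387 higher and 260 lower of 969 (39.9% and 26.8%, background 42.7% and 19.7%). Quantile normalization reversed the balance here too, with 296 higher and 259 lower, 197 higher and 347 lower, and 224 higher and 327 lower, in the same order. No share of all genes called after it is given beside these counts.

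In the 6000 positions of SE outside PR, GB-empty and other genes were closer. Mean coverage there was 0.00449, 0.00463 and 0.00626 in GB-empty genes and 0.00535, 0.00510 and 0.00658 in the other genes. The ratio of E15.5 over E11.5 was 1.39 and 1.23. Relative to the other genes, GB-empty genes thus had a gain in mean of 1.13 outside PR and 0.700 within it. The 1.13 became 0.518 with medians in place of means, and 0.949 outside the stretches of rows described below. The larger gain that the other genes had at E15.5 lay in PR. Medians outside PR were 0.00227, 0.00274 and 0.000435 in GB-empty genes and 0.00367, 0.00363 and 0.00136 in the other genes. At E15.5 the mean was thus above and the median below the earlier stages in both sets, unlike within PR. Coverage outside PR was lower at E15.5 than at E11.5 in 53.6% of GB-empty genes and 55.9% of the other genes.

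GB-empty genes were not spread evenly over the deposited row order, which is the same in the 3 files and does not follow the identifiers. The sources used here do not say what orders the rows, and no identity is drawn from it. In bins of 250 rows, 11 of 102 bins held at least 20% GB-empty genes, and these formed 4 stretches. Stretch 1, rows 13251 to 14500, held 812 GB-empty genes of 1214 (66.9%). Stretch 2, rows 16001 to 17000, held 361 of 984 (36.7%). Stretch 3, rows 21251 to 21500, held 69 of 247 (27.9%), and stretch 4, rows 24001 to 24250, held 54 of 233 (23.2%). Together they held 70.5% of the set, while outside them 542 of 21640 genes (2.50%) were GB-empty. The stretches were chosen for their density of GB-empty genes after the values were seen, so the density is a description.

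**Figure D4:**
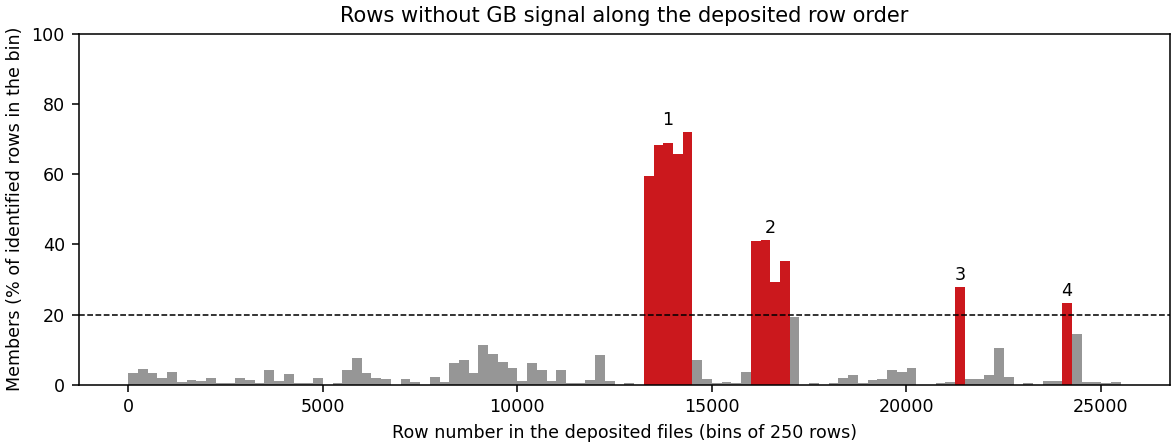
Percent of identified genes in each bin of 250 deposited rows that were GB-empty (members), by row number; bins of at least 20% (dashed line) are red and numbered as stretches 1 to 4. Stretch 1 stands highest, with 66.9% of its genes GB-empty over its whole length.

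The signal around GB-empty genes differed between the stretches, a description with no test. In stretch 1 the median PR in stage order was 0.00445, 0.00426 and 0.00396, close to the other genes at the first stages, and the means were 0.00689, 0.00699 and 0.0103. In stretch 3 the medians were 0.00556, 0.00862 and 0.0156 and the means 0.00731, 0.00880 and 0.0259. In stretch 2 the medians were 0.000217, 0.000335 and 0, and the means 0.00152, 0.00145 and 0.00135. Stretch 4 resembled stretch 2, with medians of 0.000324, 0.000363 and 0 and means of 0.00136, 0.00125 and 0.00116. PR of stretch 3 was thus high beside empty bodies, and PR of stretches 2 and 4 was low. PR of stretch 1 was ordinary or high at E11.5 and E13.5. At E15.5 its median and mean lay below the 0.00624 and 0.0122 of the other genes. Mean coverage in the part of SE outside PR was 0.00263, 0.00250 and 0.00170 in stretch 2 and 0.00179, 0.00220 and 0.00222 in stretch 4, above mean PR at each stage. SE was at 0 in 6.65% of stretch 2 and 9.26% of stretch 4 at E11.5, and in 41.6% and 38.9% at E15.5.

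The course over the stages differed between the stretches as well. The mean PR ratio of E15.5 over E11.5 was 3.54 in the 69 GB-empty genes of stretch 3, 1.49 in the 812 of stretch 1, 1.15 in the 542 outside the stretches, 0.891 in the 361 of stretch 2 and 0.854 in the 54 of stretch 4. PR was higher at E15.5 in 76.8% of stretch 3, 44.1% of stretch 1, 26.9% outside, 22.4% of stretch 2 and 13.0% of stretch 4. PR was listed at 0 at E15.5 in 8.70% of stretch 3, 27.0% of stretch 1, 59.6% outside, 70.6% of stretch 2 and 74.1% of stretch 4. Only in stretch 3 were most genes higher at E15.5, and only there did the mean ratio exceed the 2.17 of the other genes. In stretch 1 the mean was higher although 52.8% of the GB-empty genes were lower. In stretches 2 and 4 and outside the stretches, PR was at 0 in most GB-empty genes at E15.5.

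The other genes of the same stretches were compared with the GB-empty ones beside them. In stretch 2 the 623 other genes had median PR of 0.00162, 0.00223 and 0 and mean PR of 0.00307, 0.00322 and 0.00251 in stage order, above the GB-empty genes. PR was at 0 in 13.3% of them at E11.5 and 51.7% at E15.5, against 33.0% and 70.6% of the GB-empty genes. In stretch 3 the 178 other genes had a mean PR of 0.00652, 0.00715 and 0.0210, near that of the GB-empty genes. In stretch 1 the 402 other genes had 0.00814, 0.00836 and 0.0214, with a larger gain at E15.5 than the GB-empty genes of the same rows. In stretch 4 the 179 other genes were again above the 54 GB-empty ones, with a mean of 0.00434, 0.00383 and 0.00887.

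**Figure D5:**
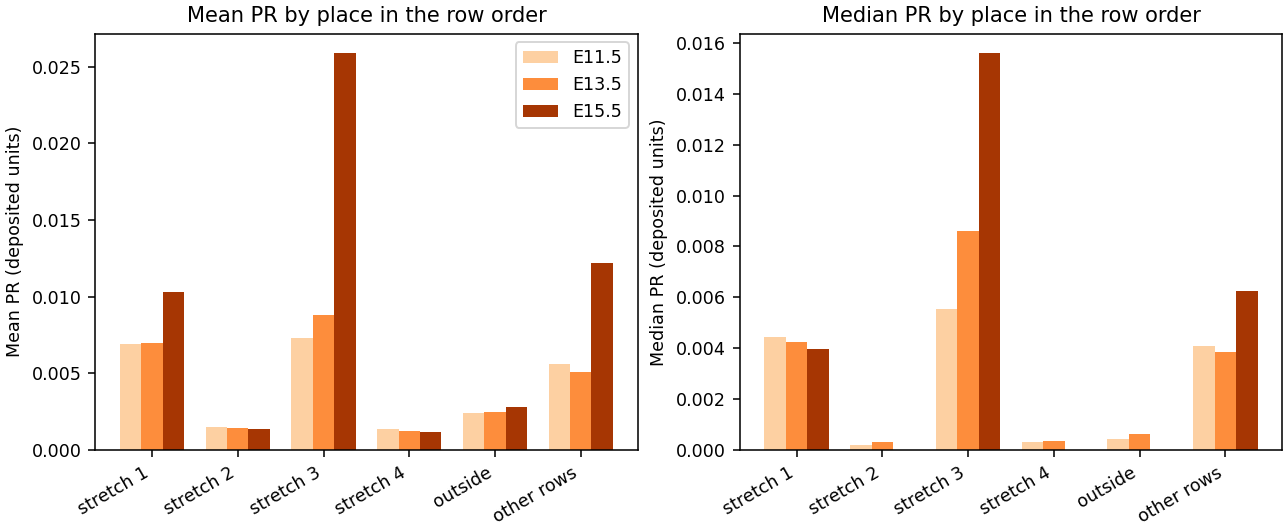
Mean (left) and median (right) PR in deposited units at each stage for GB-empty genes of stretches 1 to 4, those outside the stretches, and the other genes. Bars of stretch 3 reach a mean of 0.0259 at E15.5, while the medians of stretches 2 and 4 and of the genes outside are 0 at that stage.

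By the rule for identifiers, those with the 2 largest ratios of PR at E15.5 over E11.5 and the 2 smallest are given. ENSMUSG00000098710, in stretch 1, had PR of 0.000270, 0.0171 and 0.0666 in stage order, a log2 ratio of 5.73. ENSMUSG00000077563, in stretch 3, had PR of 0.000270, 0.0171 and 0.0666, also with a log2 ratio of 5.73. Both listed the same PR at E11.5 and at E13.5 and nearly the same at E15.5, 0.066633 and 0.066607, so their PR windows may cover nearly the same positions and the pair is not 2 independent observations. Their SE values were equal at E13.5, 0.0153, but not at E11.5, with 0.00386 and 0.000297.

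The largest differences in the other direction had different courses. ENSMUSG00000065939, in stretch 3, had PR of 0.0275, 0.00915 and 5.5e-05 in stage order, with a log2 ratio of -4.76. ENSMUSG00000093354, in stretch 1, had PR of 0.0242 at E11.5 and was listed at 0 at E13.5 and E15.5, with SE of 0.0148, 0.000195 and 0. No fold is given for it. PR of the first gene was lower at each later stage, although its SE outside PR was 0.00383 at E11.5 and 0.00402 at E13.5. PR of the second was at 0 from E13.5 on, with some coverage left in SE at that stage.

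PR signal was concentrated in fewer GB-empty genes at E15.5. The top 184 of them by PR, 10% of the set, held 43.4% of its summed PR in the earliest library, 44.4% in the next and 59.7% in the last. For the top 10% of the other genes these shares were 32.1%, 31.9% and 40.8%. Of the top 184 GB-empty genes, 59 (32.1%) were common to E11.5 and E13.5, 65 (35.3%) to E13.5 and E15.5, 60 (32.6%) to E11.5 and E15.5, and 28 (15.2%) to all 3 libraries.

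Over the whole set, the order by PR was more alike between libraries than among the other genes, but not within every stretch. Spearman correlations across the 1838 GB-empty genes were 0.441 for E11.5 with E13.5, 0.416 for E13.5 with E15.5 and 0.416 for E11.5 with E15.5, against 0.191, 0.200 and 0.209 across the other genes. Genes are not independent replicates, and the mix of covered and nearly empty stretches is contained in these values. Within stretch 1 they were 0.376, 0.323 and 0.312 in GB-empty genes and 0.306, 0.402 and 0.195 in the other genes. Within stretch 2 they were 0.036, 0.050 and -0.051, against -0.038, 0.0086 and -0.060. Within stretch 3 they were 0.098, 0.385 and 0.119 in GB-empty genes and 0.135, 0.271 and 0.212 in the other genes. Within stretch 4 the other genes had the higher values, 0.365, 0.404 and 0.442 against 0.186, 0.060 and 0.296. Outside the stretches the GB-empty genes had the higher values, 0.317, 0.268 and 0.316 against 0.185, 0.188 and 0.199. PR and the part of SE outside it had correlations of 0.368, 0.367 and 0.408 in GB-empty genes in stage order and 0.214, 0.205 and 0.285 in the other genes. Within stretch 1 the order turned at the later stages, with 0.356, 0.340 and 0.354 in GB-empty genes and 0.255, 0.422 and 0.547 in the other genes, and within stretch 4 the other genes were higher at each stage, with 0.375, 0.406 and 0.526 against 0.301, 0.121 and 0.045.

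Some genes listed equal values, which may mean that their windows coincide. Positions were not measured. Of the 781 GB-empty genes with PR above 0 in every library, 76 (9.73%) had exactly the PR values of another gene in all 3, as had 9.01% of the other genes. Of the 722 groups of genes with equal PR, 29 joined a GB-empty gene to a gene with GB signal and 21 consisted of GB-empty genes alone. SE differed within 275 of the 722 groups, so equal PR did not always come with equal SE. If windows coincide, genes of such a group count more than once in the shares given here.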

How the data were processed

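H3K36me3 CUT&Tag libraries of 3 stages, 1 per stage and grouped by the labels, were compared. Bowtie2 2.4.2 and the build mm10 are named in the submitters' processing notes. No source used here gives the filtering, counting, scaling or gene models. The authors deposited signal, a mean coverage per window, in columns PR, GB and SE of 25493 rows, per the file headers. Rows without an identifier (1175, 4.61%) were left out, and 1 identified row had an empty SE. Coverage came in whole steps of 0.162, 0.167 and 0.163 in stage order. These are not read counts, so depth is unknown and no interval is given.

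Values were compared as deposited, with Python 3.11.15, numpy 2.4.6 and pandas 2.3.3. Differences were taken as log2(value + 0.001), and a gene was called where it was at least 2-fold apart and its higher library reached the median of that column over identified rows. The caller was tried on a copy of a library in which some genes above the floor were raised and no noise was added. That trial therefore gives no rate of calls that arise from noise. The length search was tried on simulated windows with lengths and coverage drawn at random. The set of genes, the comparisons and the lists were chosen with earlier results of these data known. Planned family, gene type and promoter descriptions could not be made because 0 identifiers matched the reference table of GRCm38.p6. The identifiers named are those with the 2 largest and 2 smallest PR ratios of E15.5 over E11.5 among GB-empty genes that reached the floor. Alternatives covered the pseudocount, floor, fold, scaling, summary and choice of rows.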

Additional observations from a re-analysis of the deposited data

How the results depend on the processing

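Each of 24 results was recomputed under the alternatives, giving 174 values. Of these, 7 turned a ratio that was over 1.1 times away from 1 to its other side, 51 others differed by more than 1.5 times from the value reported, and 116 did neither. Membership outside the 4 stretches was an alternative chosen after seeing the data. No paired analysis was possible because the stages have a single library each, which also leaves no replicate to leave out. Protein-coding genes alone and matching without synonyms were not run, as no identifier matched. Except where an alternative works by its construction, the cause was not tested. Unknown depth limits every listed 0.

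With medians in place of means, the ratio of E15.5 over E13.5 and over E11.5 in GB-empty genes turned below 1, to 0.0813 and 0.0976 for PR and 0.159 and 0.192 for SE outside PR. Relative to the other genes these were 0.0502 and 0.0641, and 0.425 and 0.518. Against genes with GB at 0 in 1 or 2 libraries, the relative mean PR ratio became 0.960 and 1.08. Outside the stretches, the relative ratio of SE outside PR for E15.5 over E11.5 became 0.949.

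No share of all genes called is given under the alternatives below, so these percentages have no background beside them. Percentages of GB-empty genes called, in the order E13.5 over E11.5, E15.5 over E13.5 and E15.5 over E11.5, moved as follows. A pseudocount of 1 gave 0% for PR and SE in both directions, by construction. A pseudocount of 0.005 gave 19.0% of PR higher for the first pair with 19.4% lower, and SE 8.63, 23.9 and 23.9% higher and 9.42, 14.2 and 17.5% lower. A 4-fold threshold gave 19.3, 25.7 and 25.2% of PR higher with 18.1% lower in the first pair, and SE 7.51, 14.3 and 16.9% higher and 8.18, 15.2 and 17.4% lower. With 5 times the floor, PR was 66.8 and 69.3% higher and 13.46 and 9.76% lower for the pairs with E15.5. SE was then 40.0, 73.2 and 82.4% higher and 13.3, 1.41 and 1.47% lower. That floor left only 208 and 205 GB-empty genes for PR and 30, 142 and 136 for SE, in the same order. Without a floor, PR was 25.9% higher for E15.5 over E11.5, and SE 25.7% higher for both pairs with E15.5. Quantile normalization gave PR 26.4% higher for E15.5 over E13.5, SE 21.3% higher and 37.5% lower for that pair, and SE 24.6% higher for E15.5 over E11.5.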

Other observations

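Rows without an identifier also held empty bodies. Of the 1175 such rows, 202 (17.2%) had GB at 0 in all 3 libraries. In stage order their mean PR was 0.00238, 0.00238 and 0.00506, and PR was listed at 0 in 48.5%, 46.0% and 59.9% of them. In the rest of the rows without an identifier, PR was listed at 0 in 19.2%, 22.7% and 36.2%.

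Identifier numbers differed between the sets. Ensembl gives numbers to gene models roughly as they are added. A number of at least 60000 was carried by 83.7% of GB-empty genes, 65.5% of genes with GB at 0 in 2 libraries, 49.4% of those with GB at 0 in 1 library and 22.5% of those with GB above 0 in all. In stretch 1 such a number was carried by all 812 GB-empty genes and 88.1% of the other genes, and in stretch 2 by 64.8% and 63.4%. In stretch 3 the shares were 97.1% and 44.9%, and in stretch 4 they were 81.5% and 50.3%.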
